A study of Mus musculus with 2 samples.

Results

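Simple keratins and bile duct markers were examined in mouse liver after whole-body irradiation. The set was given as 10 gene names: the keratin genes Krt7, Krt8, Krt18, Krt19, Krt20 and Krt23, the surface protein genes Epcam and Prom1, the transcription factor gene Sox9 and the secreted phosphoprotein gene Spp1. Of these, 9 had a probe set annotated with that symbol alone, out of 22180 genes named in this way, and Spp1 was not analysed here. Krt8 and Krt18 were taken as hepatocyte keratins and the other 7 measured genes as duct genes. The irradiated liver came from a male C57BL/6 mouse sample aged 9 weeks irradiated once with 6 Gy of gamma rays when 4 weeks old, 5 weeks before collection, at 0.81 Gy per minute. The control liver was from an untreated male C57BL/6 sample of the same age. Mice were anesthetized for irradiation, and the labels do not say whether the control was. Each group was 1 array, and the labels do not say whether an RNA came from 1 animal or from a pool. No difference below has a replicate check, and no p-value was computed.

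Keratins are intermediate filament proteins that assemble as pairs of a type I and a type II chain. Hepatocytes make Krt8 (type II) and Krt18 (type I) as their keratin pair, and cholangiocytes, the epithelial cells of bile ducts, add Krt7 (type II) and Krt19 (type I). Sox9, Epcam and Prom1 mark duct cells and the progenitor-like cells that appear in the ductular reaction of injured liver, where small ducts multiply around portal tracts. In RNA of whole liver, more cells of a type and more RNA per cell cannot be told apart, nor can fewer cells and less RNA per cell.

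All 9 measured genes read higher on the irradiated array, and 3 of them were at least 1.5-fold higher: Krt19, Epcam and Prom1. None of the 9 was at least 1.5-fold lower. Among all 22180 named genes, 1.23% were at least 1.5-fold higher, 0.888% were at least 1.5-fold lower and 47.9% lay above 0. The 9 genes were chosen with earlier results of these data known, so their counts beside these shares are no independent evidence. The median difference of the 9 genes was 0.29 on the log2 scale, irradiated minus control, against 0.00 over all named genes. With 32 added on the linear scale before taking log2, which damps low values, 1 gene in place of 3 was at least 1.5-fold higher. That gene was Krt19, at 0.92, while Epcam was at 0.58 and Prom1 at 0.51.

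Most hepatocyte markers were high on both arrays and nearly equal between them. The albumin gene Alb read 13.70 on the irradiated array and 13.68 on the control array. The highest values of the arrays were 13.91 in irradiated and 13.87 in control liver. How well a difference registers so near the top of the range was not tested. The 20 measured hepatocyte markers had a median difference of -0.00 and ranged from -0.20 to 0.20, and 0 of them reached 1.5-fold. The array medians were 6.07 in irradiated and 6.05 in control liver. The median of all deposited values, 6.06, is used below as a floor for low signal. It ranks signal within the table and is no measure of background.

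**Figure D1:**
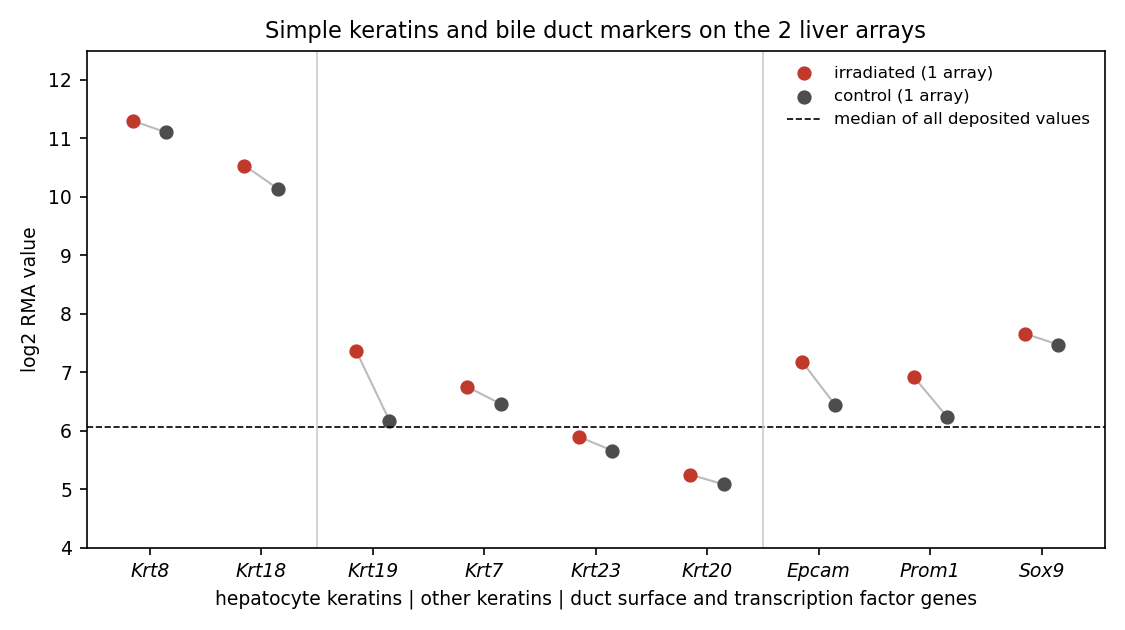
Log2 RMA values (y axis) of the 9 measured genes on the irradiated array (red, left of each pair) and the control array (grey, right), 1 array each, with the median of all deposited values, 6.06, as a dashed line. Each red point is above its grey partner, the widest gap is that of Krt19, and both points of Krt20 and Krt23 lie under the line.

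Krt8, the type II keratin of hepatocytes, had a log2 value of 11.30 in irradiated liver and 11.10 in control liver. The difference was 0.20, a fold of 1.15. Of 544 genes whose mean over both arrays lay between 11 and 12, the central 95% of differences ran from -0.30 to 0.24, so Krt8 lay within the spread of genes at its level. This spread is between genes on the same pair of arrays and is not a spread between animals.

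Krt18, the type I partner of Krt8, read 10.54 in irradiated liver and 10.14 in control liver. Its difference of 0.40, a fold of 1.32, was short of 1.5-fold but above the central 95% of the 1105 genes with means between 10 and 11, which ran from -0.38 to 0.27. A second probe set for Krt18 read 7.57 in irradiated liver and 7.29 in control liver, a difference of 0.28 in the same direction. Set against the 20 hepatocyte markers, Krt18 had a higher difference than any of them, and 1 of them had a higher difference than Krt8. That gene was Ass1, an enzyme of the urea cycle, which read 7.81 in irradiated and 7.61 in control liver.

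Krt19, the type I keratin used to recognise duct cells, read 7.37 in irradiated liver and 6.18 in control liver. Its difference of 1.20, a fold of 2.29, was the largest of the 9 genes, and it was the only one of them past 2-fold. Over all named genes 0.266% were at least 2-fold higher. Only 30 of the 22180 genes, Krt19 included, had a difference as large or larger. The control value lay just above the floor.

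Krt7, the type II duct keratin, read 6.75 in irradiated liver and 6.46 in control liver. The difference was 0.29, a fold of 1.22, and lay within the central 95% of the 4247 genes with means between 6 and 7, from -0.38 to 0.45. The Krt19 difference exceeded that of Krt7 by 0.91, so that of these duct keratins 1 was past 2-fold and the other short of 1.5-fold.

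Krt23, a type I keratin reported in injured liver, read 5.90 in irradiated and 5.66 in control liver, a difference of 0.24. Krt20, a type I keratin of gut epithelium, read 5.25 in irradiated and 5.08 in control liver, a difference of 0.17. Both genes were below the floor on both arrays and within the central 95% of the 4511 genes with means between 5 and 6, from -0.42 to 0.45. Their values do not show whether either transcript was present in the liver.

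Epcam, which encodes an adhesion molecule of duct and progenitor cells, read 7.19 in irradiated liver and 6.44 in control liver. The difference was 0.75, a fold of 1.68, and 129 of 22180 named genes, Epcam included, differed by at least as much in that direction. Prom1, which encodes the membrane glycoprotein CD133, read 6.93 in irradiated liver and 6.24 in control liver. Its difference was 0.69, a fold of 1.61. Krt19, Epcam and Prom1 all lay above the central 95% of genes with means between 6 and 7, whose upper end was 0.45.

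Sox9, the transcription factor of duct cell fate, read 7.66 in irradiated liver and 7.47 in control liver. The difference of 0.19, a fold of 1.14, lay within the central 95% of the 2867 genes with means between 7 and 8, from -0.36 to 0.46. In all, 4 of the 9 genes lay above the central 95% of genes at their level (Krt18, Krt19, Epcam and Prom1) and 5 lay within it.

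**Figure D2:**
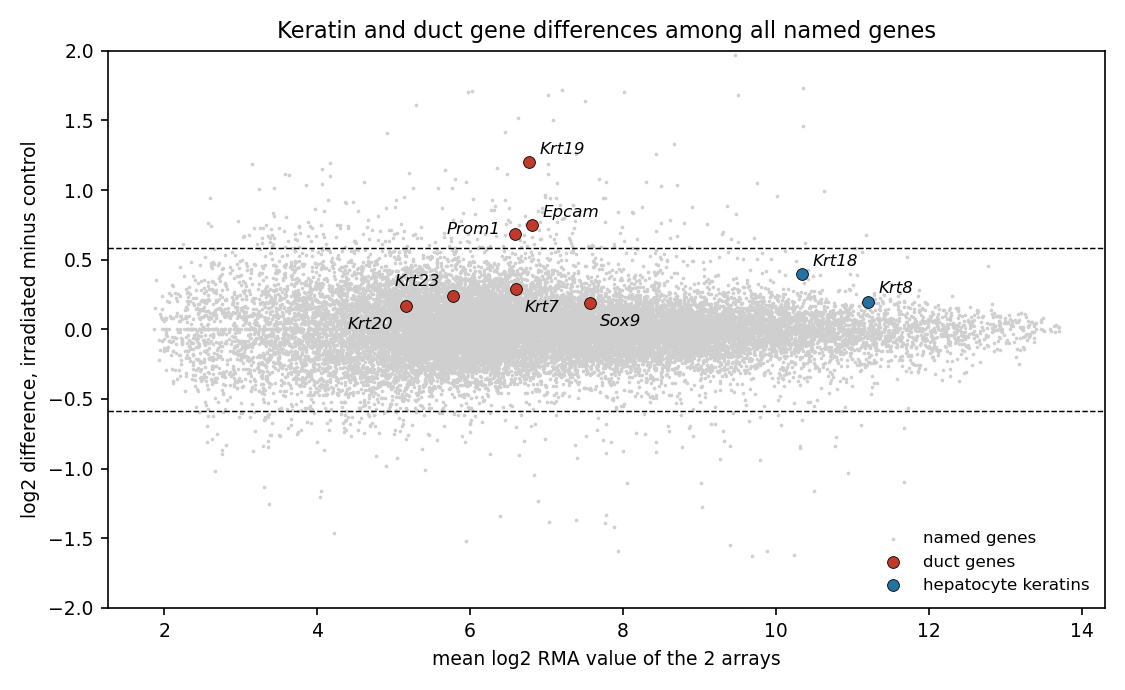
Log2 difference, irradiated minus control (y axis), against the mean log2 RMA value of both arrays (x axis) for all named genes (grey), the duct genes (red) and the hepatocyte keratins (blue). Dashed lines mark 1.5-fold, and 16 genes outside the range from -2 to 2 are not drawn. Krt19, Epcam and Prom1 stand above the upper dashed line, and the other 6 lie between the lines and above 0.

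Set against the hepatocyte keratins, the duct genes split into a higher and a lower part. The duct genes had a median difference of 0.29, and Krt8 and Krt18 averaged 0.30, so the duct median minus the hepatocyte keratin mean was -0.01. By their mean of 0.50 the duct genes were 0.21 above the hepatocyte keratins. Krt19, Epcam and Prom1 exceeded the hepatocyte keratin average by 0.90, 0.45 and 0.39. Krt7, Krt23, Sox9 and Krt20 were all below it, between 0.17 and 0.29, and 2 of these 4 were below Krt8 itself. The comparison depends on the low genes. With Krt20 and Krt23 left out because they were below the floor, the median of the other 5 duct genes was 0.69, which was 0.39 above the hepatocyte keratins. Among genes with a value above the 75th percentile of the table (7.64) Sox9 was the only duct gene, and it reached that value on the irradiated array alone, so no comparison rests on it.

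Krt19 had the largest difference of the 53 keratin genes measured. It was the only one at least 1.5-fold higher, and 0 were as much lower. The 47 keratin genes outside the set had a median of 0.03 and ran from -0.46 to 0.55, with 25 of them above 0. The type I keratins among these, 24 genes, had a median of 0.04, and the 23 type II keratins had a median of -0.01. Only 16 of the 47 reached the floor on an array, so most of this family, which serves skin and hair, gave low signal in liver. Krt18 ranked 5 of 53, Krt7 ranked 9 and Krt8 ranked 17.

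**Figure D3:**
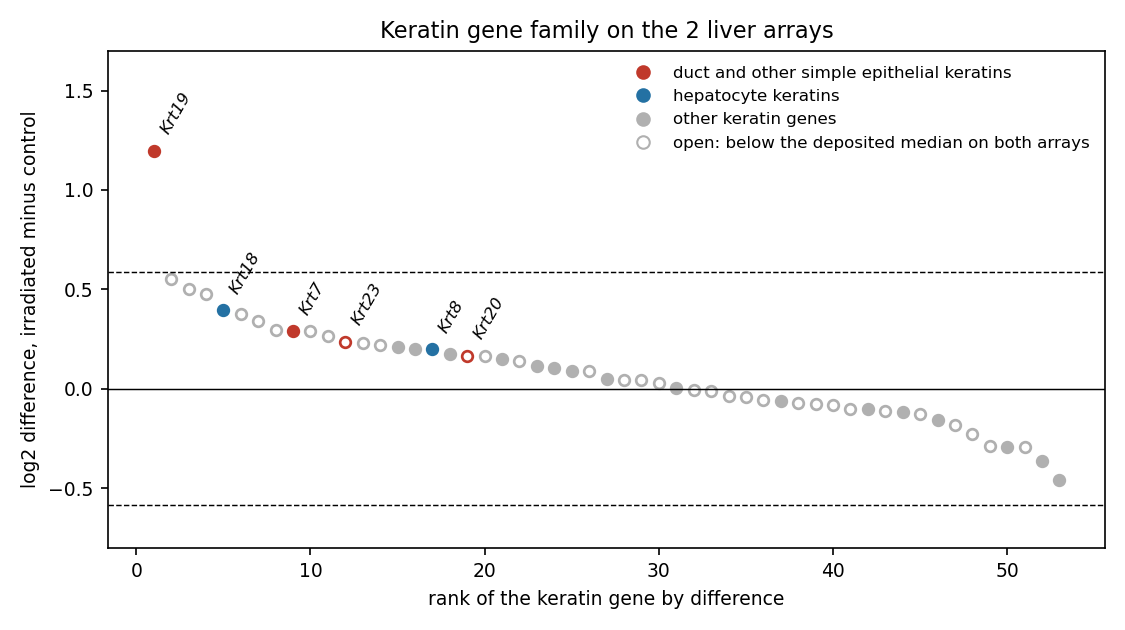
Log2 difference, irradiated minus control (y axis), of 53 keratin genes ordered by that difference (x axis, rank). Open points were below the deposited median on both arrays, and dashed lines mark 1.5-fold. Krt19 at 1.20 is the only point past a dashed line, and the next, at 0.55, is an open one.

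Desmosome and keratin linker genes, and intermediate filament genes other than keratins, had medians near 0.1. The 15 desmosome and keratin linker genes measured, which tie filaments to cell junctions, had a median of 0.10, with 1 at least 1.5-fold higher and 0 lower. That gene was Ppl, which encodes the linker periplakin, at 8.36 in irradiated and 7.63 in control liver. The 13 other intermediate filament genes had a median of 0.09. Of these, 1 was at least 1.5-fold higher, the muscle filament gene Des, at 8.24 in irradiated and 7.29 in control liver, and 1 was as much lower. The lower one, named after its value was seen, was the neurofilament gene Nefl at -0.61, below the floor on both arrays.

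Most other cholangiocyte genes read higher on the irradiated array. Of 32 measured, 29 exceeded 0, 8 passed 1.5-fold in that direction and 0 in the other, and the median was 0.37. Of the 8, 7 reached the floor on an array. Among these, Elf3 and Ehf reached it in irradiated liver alone, at 6.47 and 6.39, against 5.42 and 5.81 in control liver. The count at the floor is thus partly set by the rise itself. Among all named genes 1.23% were at least 1.5-fold higher and 47.9% lay above 0. This and the other lists were chosen with earlier results of these data known, so their counts are no independent support for the values of the 9 genes. The largest differences were those of the surface glycoprotein genes Muc1 (2.62) and Cd24a (2.50), the annexin gene Anxa13 (1.12) and the epithelial transcription factor gene Elf3 (1.06). The last was below the floor in the control. The 24 genes short of 1.5-fold ran from -0.21 to 0.47. Those below 0 were Cldn3 (-0.21), Onecut1 (-0.09) and Onecut2 (-0.07), and Slc4a2 (0.07) and Aqp1 (0.06) were near 0. These genes were named after their values were seen. The regulators of duct fate showed smaller values. The 23 genes of the Notch and Hippo pathways and their targets, which direct liver progenitors toward duct cells, had a median of 0.09, and none reached 1.5-fold. They ran from -0.14 to 0.50, and 19 were above 0. The 10 fetal hepatoblast and regeneration genes had a median of 0.05, and Cd24a was the only one past 1.5-fold.

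Some markers of other cells that make simple keratins, Epcam or Prom1 also differed between the arrays, while the medians of these lists were at most 0.09. The part of such cells in the values above was not tested. Of 18 gut epithelial genes, 2 were at least 1.5-fold higher, the mucin gene Muc3 (2.79) and the lectin gene Lgals4 (1.06), and the other 16 ran from -0.27 to 0.41. Of the 18, 11 were above 0, and the median was 0.09. The summed linear RMA values of all 18, Muc3 and Lgals4 included, were 3225 in irradiated and 2683 in control liver. At or above the floor were 10 in irradiated and 8 in control liver. Of 12 pancreatic acinar genes, 2 were higher, Reg1 (3.83), a secreted lectin, and the protease gene Ctrb1 (2.65). The other 10 ran from -0.15 to 0.23, 6 of the 12 were above 0, and the median was 0.003. The sums over all 12, Reg1 and Ctrb1 included, were 1467 in irradiated and 615 in control liver. Of the 12, 4 were at or above the floor in irradiated and 3 in control liver. Of 8 gallbladder genes, 1 was higher, the mucosal scavenger receptor gene Dmbt1 (5.66), while the other 7 ran from -0.21 to 0.43. Of the 8, 4 were above 0, and the median was 0.04. The sums over all 8, Dmbt1 included, were 2266 in irradiated and 480 in control liver. Dmbt1 itself read 10.83 in irradiated and 5.17 in control liver. The rise in the gut, pancreatic and gallbladder sums came mainly from the genes named here. Of the gallbladder genes, 2 were at or above the floor in irradiated and 1 in control liver. Muc3, Reg1 and Dmbt1 were below the floor in the control. Mesothelial cells of the liver surface carry the same keratins as ducts. Of their 10 genes 1 was at least 1.5-fold higher, the membrane glycoprotein gene Gpm6a (0.63), with a median of 0.09 and sums of 1338 in irradiated and 1164 in control liver. Here 9 genes in irradiated and 10 in control liver reached the floor.

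Most stellate, smooth muscle and macrophage genes read higher on the irradiated array. Where in the liver their transcripts came from was not tested. Of 13 stellate and myofibroblast genes, 12 were above 0 and 3 at least 1.5-fold higher, namely Acta2 (1.97), Des (0.95) and Postn (0.75), with a median of 0.19 and sums of 9785 in irradiated and 7669 in control liver. All 9 smooth muscle genes exceeded 0, their median was 0.40, and 4 passed 1.5-fold, Cnn1 (2.42), Des, Actg2 (0.84) and Tagln (0.59). Their sums were 2349 in irradiated and 1609 in control liver. Of 14 macrophage genes, 12 were above 0 and 2 at least 1.5-fold higher, Mmp12 (0.86) and Gpnmb (0.63), both below the floor in the control, with a median of 0.29 and sums of 6042 in irradiated and 5001 in control liver. Some of these genes, Acta2 and Des among them, are shared by stellate and smooth muscle cells. The other 10 stellate and myofibroblast genes, short of 1.5-fold, ran from -0.01 to 0.31. In irradiated liver 11 stellate, 8 smooth muscle and 13 macrophage genes reached the floor, against 11, 8 and 11 in control liver.

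**Figure D4:**
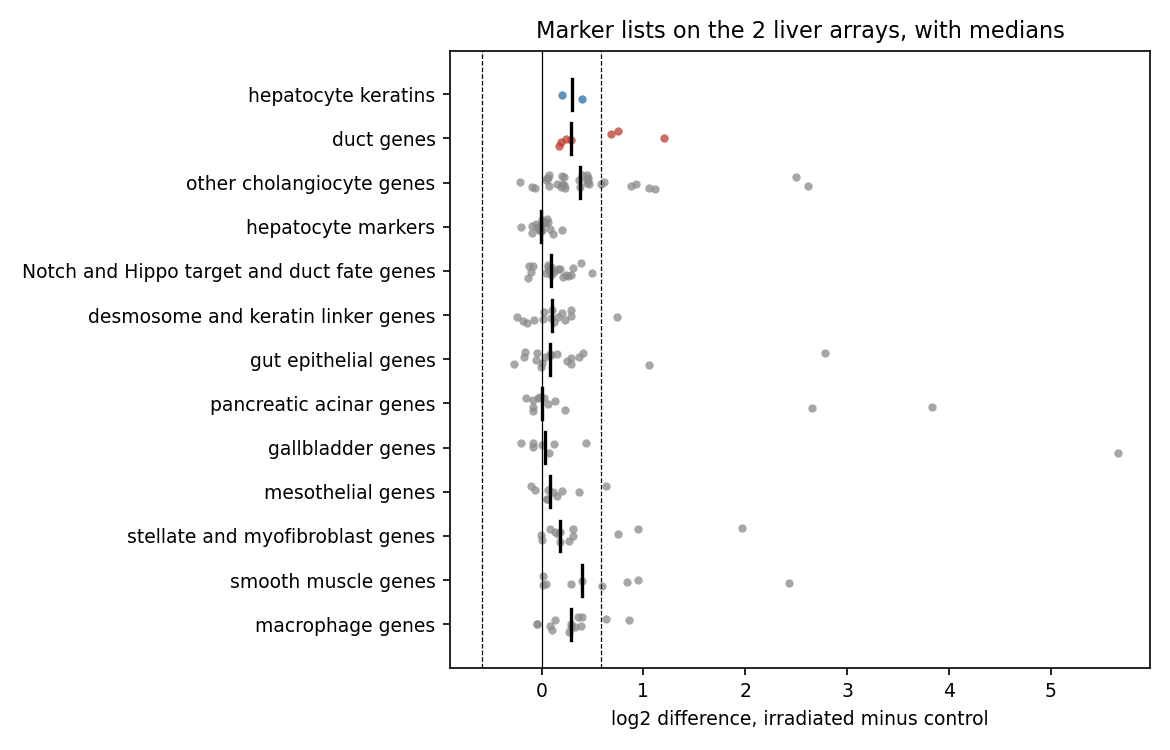
Log2 difference, irradiated minus control (x axis), of each measured gene in 13 lists (rows), with the list median as a black bar and 1.5-fold as dashed lines. The bars of the hepatocyte keratins and the duct genes lie together at 0.30 and 0.29, that of hepatocyte markers lies at -0.00, and that of other cholangiocyte genes at 0.37.

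Promoter sequences of 8 of the 10 genes, Spp1 included, were found in RefSeq's table for mouse build GRCm38.p6. Krt19 and Sox9 were not among them. Each sequence covers 250 bases before to 50 bases after the annotated start. The hepatocyte pair Krt8 and Krt18, both on chromosome 15, and the duct genes Epcam and Prom1, which were at least 1.5-fold higher, are shown to set the promoters of both kinds of gene side by side. Capitals mark matches on either strand to 7 short words. The core promoter word of the TATA box was searched as TATAAA, and the GC box read by Sp1 as GGGCGG. The site of AP-1 was searched as TGANTCA, and that of the liver and duct factors of the HNF1 family as GTTAAT. The core word of SOX factors was ACAAAG, the core word of TEAD factors, which act with YAP, was GGAATG, and the core word of RBPJ, which acts with Notch, was GTGGGAA. The Krt8 promoter is chr15:102004293-102004592 on the minus strand and that of Krt18 is chr15:102027966-102028265 on the plus strand. The Epcam promoter is chr17:87635729-87636028 on the plus strand. Prom1 has 2 entries, and the one shown is chr5:44101687-44101986 on the minus strand.
Krt8: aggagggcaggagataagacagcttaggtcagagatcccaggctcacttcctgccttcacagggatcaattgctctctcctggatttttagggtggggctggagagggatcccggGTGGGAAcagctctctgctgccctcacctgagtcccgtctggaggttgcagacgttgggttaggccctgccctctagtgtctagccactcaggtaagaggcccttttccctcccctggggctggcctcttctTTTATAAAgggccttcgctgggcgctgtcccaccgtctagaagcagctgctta
Krt18: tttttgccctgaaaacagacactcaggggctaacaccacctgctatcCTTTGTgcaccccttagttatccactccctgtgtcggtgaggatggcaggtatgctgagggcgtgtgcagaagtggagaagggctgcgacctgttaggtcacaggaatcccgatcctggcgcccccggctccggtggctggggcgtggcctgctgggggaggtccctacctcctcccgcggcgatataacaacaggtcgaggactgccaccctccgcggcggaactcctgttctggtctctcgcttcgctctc
Epcam: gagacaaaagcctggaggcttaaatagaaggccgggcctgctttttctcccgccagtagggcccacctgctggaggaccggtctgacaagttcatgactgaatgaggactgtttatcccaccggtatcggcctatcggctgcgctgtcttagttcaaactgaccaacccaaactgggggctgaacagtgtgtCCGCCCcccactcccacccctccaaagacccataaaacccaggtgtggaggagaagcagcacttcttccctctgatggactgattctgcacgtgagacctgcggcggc
Prom1: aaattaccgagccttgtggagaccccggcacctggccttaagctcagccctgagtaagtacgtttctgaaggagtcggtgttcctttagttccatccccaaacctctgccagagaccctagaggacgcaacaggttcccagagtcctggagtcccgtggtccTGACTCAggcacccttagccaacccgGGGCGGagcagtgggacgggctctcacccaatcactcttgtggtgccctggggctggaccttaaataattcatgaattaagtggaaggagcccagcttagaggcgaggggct

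The GC box was the only one of the 7 words that more than 1 of the 4 printed promoters held. The Krt8 sequence held a TATA box match on each strand, overlapping each other and starting 3 bases and 1 base before the annotated start, and an RBPJ match. TATAAA occurred in 13.6% of 32851 RefSeq promoters of the same length and GTGGGAA in 6.38%. The Krt18 sequence held 1 SOX match, a word found in 18.7% of promoters. Epcam and the Prom1 sequence shown each held 1 GC box match, as 35.7% of promoters do, and Prom1 also held 1 AP-1 match, found in 7.81%. Of the promoters not printed, Krt7 held 4 GC box matches, Krt20 held 3 TEAD matches and 1 TATA box match, and Krt23 held none of the 7 words. Of the 2 Spp1 entries, 1 held a TATA box, an HNF1 and a SOX match and the other a SOX match, and the other Prom1 entry held 1 AP-1 match. The HNF1 word (7.10% of promoters) was found in none of the 4 sequences printed, and neither was the TEAD word (14.7%). The G and C content was 58.0% for Krt8, 61.3% for Krt18, 57.0% for Epcam and 57.0% for Prom1, against a median of 52.7%. Such a match describes letters in the window and not binding of a factor.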

How the data were processed

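Liver RNA, 300 ng per sample, was hybridised to 2 Affymetrix whole-transcript arrays, 1 irradiated and 1 control. The deposited log2 values, 1 per probe set, were made by the authors with RMA in Affymetrix Expression Console 1.3.1, per the submitters' processing notes. The file does not state the log base, and the range from 1.47 to 13.91 (irradiated) and from 1.46 to 13.87 (control) was read as log2. RMA makes the arrays' distributions alike, so a shift in total RNA per cell cannot be seen. The table had 41345 probe sets, 23521 with 1 gene symbol in GEO's platform annotation, 1814 with several and 16010 with none. Where a symbol had several, the one whose 2 values averaged highest was kept. List names missing there were matched by Entrez identifier through RefSeq. The measure was irradiated minus control, with sizes of 1.5-fold and 2-fold, since 1 array per group allows no test. The number of arrays limits the precision. Python 3.11.15, pandas 2.3.3 and statsmodels 0.14.6 were used, and the counting was tested on simulated data. With simulated noise of standard deviation 0.2 on each array, 1.97% of unchanged genes were called at least 1.5-fold higher. Of genes raised by 0.75 on the log2 scale, 58% were called. The noise of the real arrays is unknown, so the simulation does not show that a 1.5-fold difference here is real. All 9 measured members are named, and from each list up to 4 genes past 1.5-fold that reached the floor. Any other gene was named after its value was seen. The members and lists were chosen with earlier results of these data known. Alternatives changed the scaling, probe set choice, offset, floor, threshold and summary. Scanner files were not used here.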

Additional observations from a re-analysis of the deposited data

Results flagged for a closer look

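The second Krt18 probe set, which was not used for the gene's value, also gave signal above the control, with a difference of 0.28 (7.57 in irradiated and 7.29 in control liver), beside 0.40 for the probe set used. With 1 array per group no sample could be set against others of its group.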

How the results depend on the processing

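No paired analysis was possible because irradiated and control liver had 1 array each. Among 151 alternative values, 131 stayed within 0.1 log2 units (within 1.5 times for counts), 20 moved further and 0 reversed the direction of a gene past 1.5-fold. A reversal was counted only where the main value was itself past 1.5-fold. Some settings leave a gene's value unchanged by construction, such as averaging probe sets of a gene with 1, so the 131 are no measure of stability. Of 73 values for single genes, 71 were above 0, and the other 2 were Krt20 and Krt23, at 0 once low values were raised to the floor. The count of genes at least 1.5-fold higher was 3, and it was 1 with the offset of 32, 1 at 2-fold and 0 among genes reaching the 75th percentile (7.64), which left 3 members. The median of duct genes was 0.69 over genes reaching the floor, 0.19 over those reaching the 75th percentile, and 0.50 as a mean. The second of these is Sox9 alone, which passed only through its irradiated value (7.66, against 7.47 in control liver), so it says nothing about the stability of the median. The distance of the duct genes from the hepatocyte keratins, -0.01 in the main setting, was 0.39, -0.11 and 0.21 under the same settings, with the same limit for -0.11. It was 0.02 with all probe sets of a gene averaged, so its sign depended on the setting. Other cholangiocyte genes had a median of 0.24 with the offset, 0.20 with low values set to the floor, 0.20 over the 75th percentile and 0.49 as a mean. Muc1, Cd24a, Slc10a2 and Ezr passed the 75th percentile only through their irradiated values, with control values of 6.21, 7.23, 7.39 and 7.42. The median over the 75th percentile is therefore no check at high signal. The keratin family median of 0.05 became 0.30 over the 75th percentile, which left Krt8 and Krt18 alone. The cause of these shifts was not tested beyond what each setting changes by construction. Precision near the floor is limited, and 1 array per group leaves the spread between animals unknown.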
